A study of Mus musculus with 69 samples.

Results

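The 10 genes described here, Msgn1, Tbx6, Mesp2, Ripply2, Meox1, Tcf15, Uncx, Foxc2, Pax1 and Tbx18, follow paraxial mesoderm from presomitic tissue to the somite and its derivatives. They were taken by symbol from the deposited table of raw counts, where all 10 were found among 55367 gene symbols, and were read in all 69 libraries. The libraries are bulk mRNA sequencing of mouse embryonic stem (mES) cells and of cells sorted by FACS from mosaic gastruloids, which are aggregates of such cells that form the tissues of a gastrulating embryo in culture. At 0 h there were 3 clones, named WT–emiRFP, p53KO–emiRFP and WT–mCherry, all derived from the E14Tg2A line and each carrying a histone H2B reporter (EF1α–H2B–mCherry or CAG–H2B–emiRFP670). p53KO–emiRFP is 1 subclone of WT–emiRFP with a homozygous frameshift in Trp53, selected with nutlin, so its genotype and its clonal history cannot be told apart. At 48, 72, 96, 120 and 144 h, WT + WT gastruloids (150 cells of each WT clone seeded) gave WT–mCherry and WT–emiRFP cells, and WT + p53KO gastruloids (25 p53KO–emiRFP with 150 WT–mCherry cells) gave p53KO–emiRFP and WT–mCherry cells. From 48 h on, p53KO–emiRFP and WT–emiRFP cells thus came from different gastruloids. Genotype, neighbours and seeding numbers cannot be told apart in their comparison. All gastruloids were grown in N2B27 medium and received a CHIR99021 pulse, which activates Wnt signalling, from 48 to 72 h. Each of the 23 groups had 3 replicates, which the study describes as independent experiments.

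Paraxial mesoderm is laid down at the posterior end of the embryo under Wnt and FGF signals, passes through a posterior presomitic state, and is cut into somites at a determination front where these signals fade and Notch oscillations stop. Msgn1 encodes a basic helix-loop-helix (bHLH) factor and Tbx6 a T-box factor that together specify presomitic mesoderm, while Mesp2 (bHLH) places the next boundary and Ripply2, a co-repressor that Mesp2 activates, ends the presomitic programme. Meox1, a homeobox factor, and Tcf15 (also called paraxis), a bHLH factor needed for the somite epithelium, mark the formed somite, and Tcf15 is also known from pluripotent cells that are about to differentiate. Uncx marks the posterior and Tbx18 the anterior compartment of a somite, Foxc2 is a forkhead factor of forming somites and sclerotome, and Pax1 is a paired-box factor of the ventral sclerotome, which gives rise to vertebral cartilage.

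Msgn1, Tbx6, Mesp2, Ripply2 and Foxc2 were called higher at both 120 and 144 h in p53KO–emiRFP cells, against WT–emiRFP, and of these 5 the promoters of the 2 presomitic genes and the 2 determination front genes are shown. Each holds 250 bases before and 50 bases from the start site (RefSeq, GRCm38.p6), printed 5′ to 3′ on the strand of the gene. Msgn1 is on the minus strand at chr12:11208899-11209198, and Tbx6 at chr7:126781233-126781532, Mesp2 at chr7:79810477-79810776 and Ripply2 at chr9:87015287-87015586 are on the plus strand. Capitals mark matches, on either strand, to the E-box CANNTG, the T-box sites GGTGTGA and GGTGTT, the TCF/LEF sites CTTTGAA and CTTTGAT, and the RBPJ site TGGGAA.
Msgn1: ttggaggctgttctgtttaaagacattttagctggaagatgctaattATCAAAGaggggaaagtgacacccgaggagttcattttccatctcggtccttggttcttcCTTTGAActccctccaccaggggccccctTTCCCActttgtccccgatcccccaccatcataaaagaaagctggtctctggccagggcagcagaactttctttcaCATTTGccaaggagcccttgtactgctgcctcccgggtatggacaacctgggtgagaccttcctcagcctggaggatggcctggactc
Tbx6: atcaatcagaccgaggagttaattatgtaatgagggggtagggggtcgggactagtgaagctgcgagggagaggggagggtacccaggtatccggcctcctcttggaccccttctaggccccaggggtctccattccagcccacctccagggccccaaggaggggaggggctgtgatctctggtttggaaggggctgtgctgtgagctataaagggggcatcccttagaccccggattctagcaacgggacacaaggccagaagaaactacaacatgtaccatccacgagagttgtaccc
Mesp2: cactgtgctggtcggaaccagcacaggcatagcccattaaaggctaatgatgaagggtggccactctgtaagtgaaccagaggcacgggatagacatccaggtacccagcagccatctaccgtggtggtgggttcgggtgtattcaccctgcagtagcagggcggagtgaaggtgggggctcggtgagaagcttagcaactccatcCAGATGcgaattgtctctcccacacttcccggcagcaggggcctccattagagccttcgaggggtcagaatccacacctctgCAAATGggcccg
Ripply2: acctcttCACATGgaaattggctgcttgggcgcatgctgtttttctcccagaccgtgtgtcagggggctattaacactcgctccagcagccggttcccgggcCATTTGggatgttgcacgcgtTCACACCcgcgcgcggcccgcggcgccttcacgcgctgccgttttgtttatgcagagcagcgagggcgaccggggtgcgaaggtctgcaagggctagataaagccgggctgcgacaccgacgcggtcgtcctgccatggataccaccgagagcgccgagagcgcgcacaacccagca

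The Msgn1 window held CTTTGAA with its first base at −143 from the start site, CTTTGAT on the minus strand at −203, TGGGAA on the minus strand at −114 and an E-box at −38. The Tbx6 window held none of these letters, which says only that they are not in this window. Mesp2 had E-boxes at −44 and 38, and Ripply2 had E-boxes at −243 and −148 and GGTGTGA on the minus strand at −127. Over 32851 promoters of the same length, CANNTG was found in 72.3%, TGGGAA in 25.6%, GGTGTT in 11.7%, CTTTGAA in 5.14%, GGTGTGA in 3.98% and CTTTGAT in 3.73%. Promoters were found for 7 of the 10 genes (not for Meox1, Tcf15 and Foxc2), and of the other 3 windows found, Uncx held 1 E-box, Tbx18 an E-box and TGGGAA, and Pax1 none. A match is a description of the sequence, not a binding site.

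Counts were divided by size factors (median of ratios over the 69 libraries), and these normalized counts are the levels given below. Library totals ranged from 26722541 to 72981570 counts with a median of 53098728. Of the 10 genes, 7 had a count in every library. The filter on low counts of the fit of each time point left 7 of the 10 genes at 0 h, 6 at 48 h, 7 at 72 h, 9 at 96 h (without Ripply2) and all 10 at 120 and 144 h, so no value for a gene below the filter is read as a difference. Trp53, the targeted gene, had 1506 to 2589 normalized counts in the p53KO libraries and 13902 to 27511 in the WT libraries. In the GRCm38 annotation, the presomitic genes Msgn1 and Tbx6 lie at chr12:11208360-11208972 (a single exon) and chr7:126781483-126785560, and the front genes Mesp2 and Ripply2 at chr7:79810727-79813439 and chr9:87015537-87019917. The somite genes Meox1 and Tcf15 lie at chr11:101877510-101894374 and chr2:152143561-152149097, and the genes of its compartments and derivatives at chr5:139543494-139548179 (Uncx), chr8:121116171-121118895 (Foxc2, a single exon), chr2:147361925-147393295 (Pax1) and chr9:87702800-87731260 (Tbx18). These are gene spans. Of these, Meox1, Pax1 and Tbx18 each overlap a gene on the opposite strand (Gm11551, AI646519 and D030062O11Rik) and Foxc2 overlaps Gm20388 on its own strand. Whether counting used the strand is not given in the sources used here, so reads of these pairs may be mixed. In sorted bulk samples, fewer cells of a type and less RNA per cell cannot be told apart.

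In WT cells Msgn1 and Tbx6 had their highest mean at 96 h, Mesp2, Ripply2, Meox1, Tcf15, Uncx, Foxc2 and Tbx18 at 120 h, and Pax1 at 144 h. Here WT is the mean of the 3 sorted WT populations, the WT–mCherry cells beside p53KO cells included, or of both WT clones at 0 h. Tcf15 was already at 1362 normalized counts at 0 h, and its mean was 258 at 72 h and 2434 at 120 h. Msgn1 had 53.1 ± 26.0 normalized counts in WT–emiRFP cells at 72 h (SD, n = 3), which became 8453 ± 751 at 96 h. The log2 fold change of Msgn1 over this step in WT cells was 7.87 (SE 0.18, edgeR adjusted p = 1.8e-40), and that of Tbx6 was 6.72 (SE 0.11, edgeR adjusted p = 3.1e-46). Between 72 and 96 h, 6 of the 10 genes rose and 1, Pax1, fell in WT cells, where 30.4% of all genes tested rose and 28.2% fell. Foxc2 was at 0 in all 3 libraries of WT–mCherry cells beside p53KO cells at 72 h, and it had 1046 ± 297 normalized counts in WT–emiRFP cells at 96 h, so no fold is given for it. Mesp2 changed by 0.27 (edgeR adjusted p = 0.048), a call that was lost without replicate 2 (edgeR adjusted p = 0.55) and without replicate 3 (0.07), with a range of 0.017 to 0.55 over its alternatives.

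From 96 to 120 h Msgn1 fell by 5.50 and Tbx6 fell by 3.12 on the log2 scale in WT cells (edgeR adjusted p = 2.4e-36 and 1e-35), while the other 8 genes rose. Over all genes, 28.8% rose and 28% fell. The largest of these rises was that of Uncx, with 8.59 ± 0.827 normalized counts in WT–emiRFP cells at 96 h and 705 ± 142 at 120 h. Ripply2 rose by 5.23 (SE 0.21) and Tbx18 by 4.88 (SE 0.16), and the libraries of the times did not overlap for any of the 10 genes. Per kilobase of exon, Meox1 (3936 normalized counts) and Tcf15 (2523) had the highest levels of the 10 genes in WT–emiRFP cells at 120 h, and Pax1 (23.7) the lowest. From 120 to 144 h, 9 genes fell and Pax1 rose by 2.42 (SE 0.17, edgeR adjusted p = 2.5e-18), where 26.8% of all genes fell and 28.6% rose. Over the 3 WT populations, the mean at 144 h was 2.02% to 6.24% of that at 120 h for Msgn1, 6.08% to 15.97% for Tbx6, 15.7% to 32.4% for Mesp2 and 0.679% to 4.51% for Ripply2, whose highest value is that of WT–mCherry cells beside p53KO cells. It was 8.28% to 18.9% for Foxc2, 13.5% to 29.4% for Tbx18, 17.1% to 55.4% for Uncx, 26.5% to 56.0% for Meox1 and 39.5% to 43.5% for Tcf15. Uncx and Pax1 were the genes of which single WT libraries of 120 and 144 h overlapped.

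**Figure D1:**
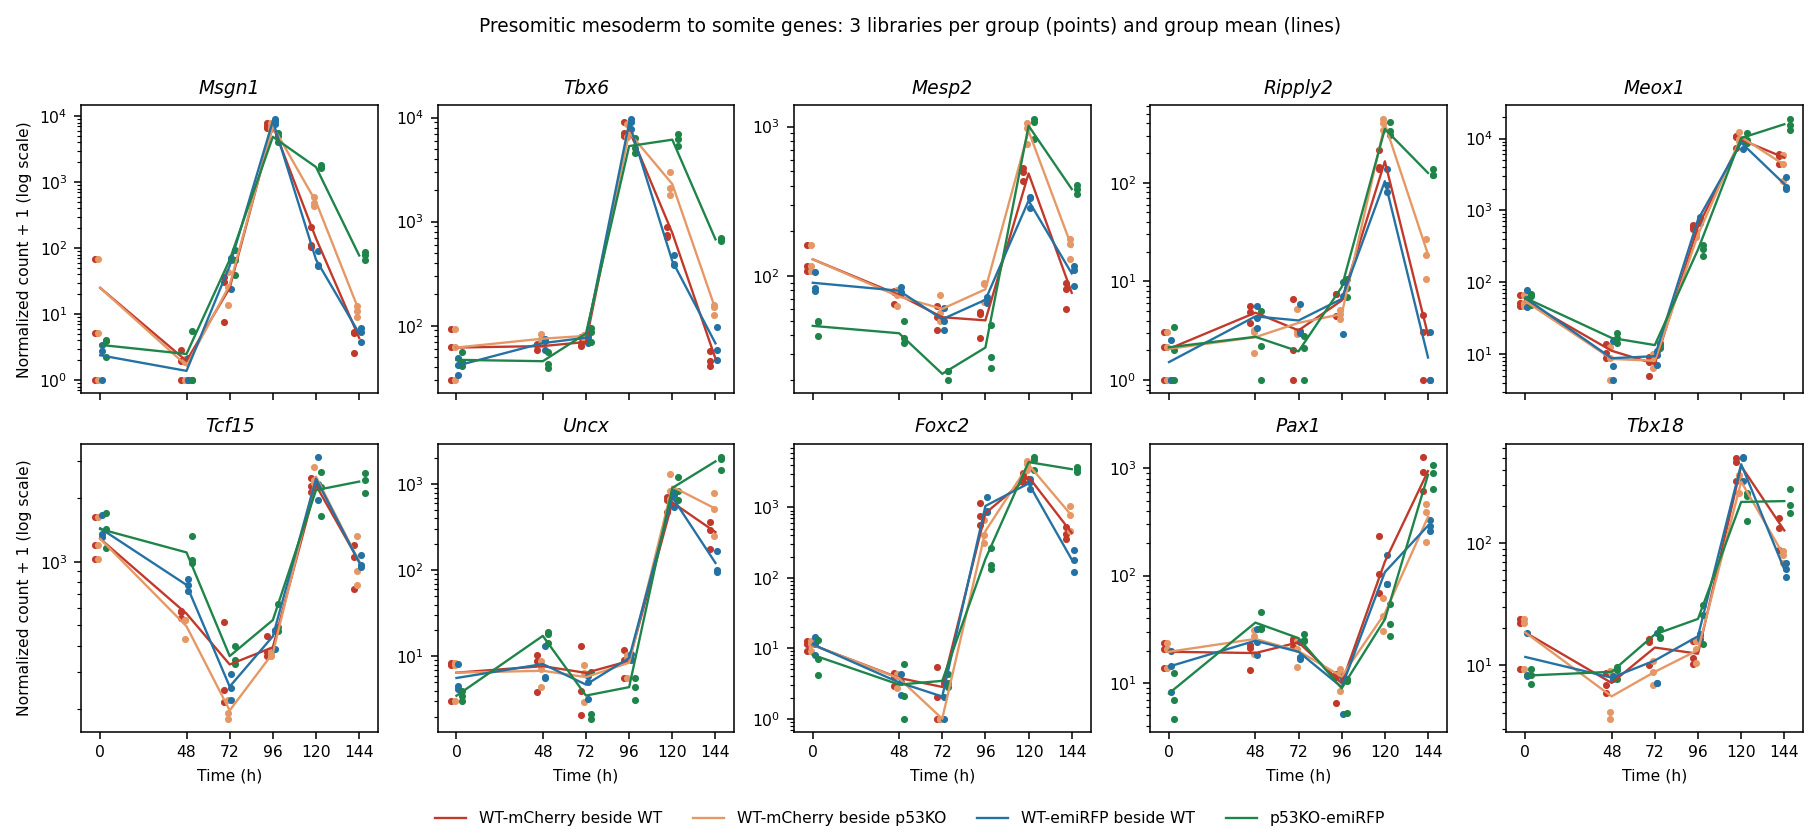
Normalized counts plus 1 (log axis) of each of the 10 genes against time in hours, with a point for each library, a line through the means of 3 libraries and a colour for each population. Both WT–mCherry lines start from the same 3 mES cell libraries at 0 h. Msgn1 and Tbx6 peak at 96 h in WT cells, and at 144 h the p53KO–emiRFP libraries lie above the WT–emiRFP libraries for all 10 genes.

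**Figure D2:**
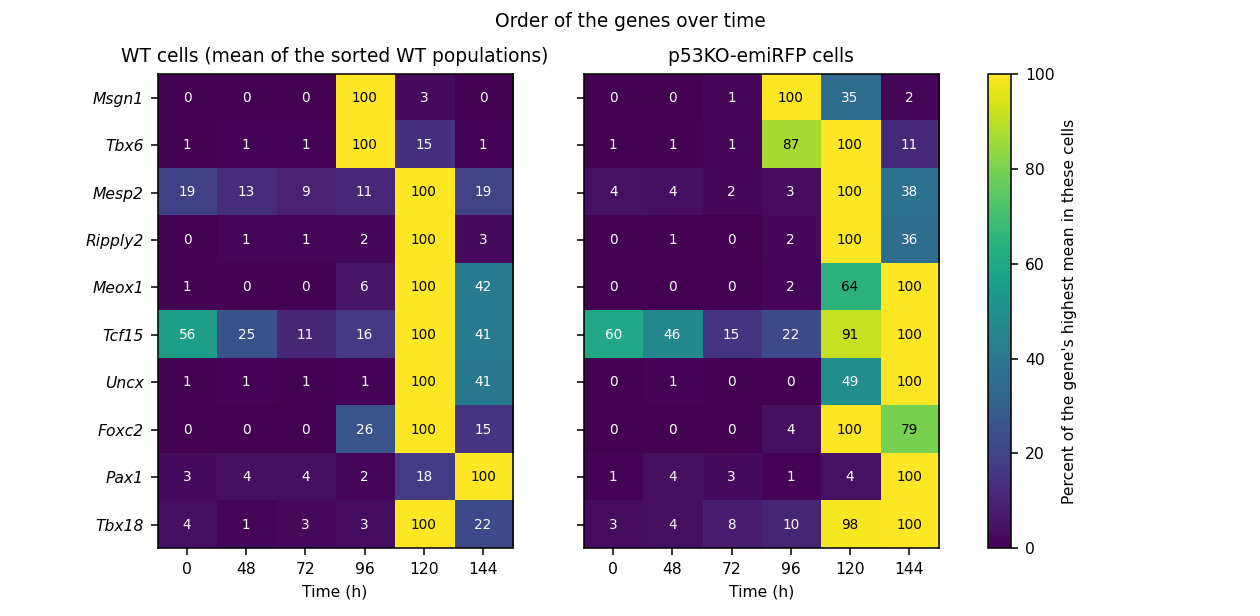
Mean level of each gene at each time as a percentage of its own highest mean, in WT cells (mean of 3 sorted populations) and in p53KO–emiRFP cells. In p53KO–emiRFP cells Meox1 and Uncx are highest at 144 h and in WT cells at 120 h, whereas for Tbx6 (96 and 120 h), Tcf15 and Tbx18 (120 and 144 h) the change between the 2 highest means of p53KO–emiRFP cells was not called.

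Up to the end of the CHIR99021 pulse at 72 h, the number of the genes called between p53KO–emiRFP and WT–emiRFP cells was 1 of 7 at 0 h, 3 of 6 at 48 h and 1 of 7 at 72 h. At 0 h only Mesp2 of the 7 tested genes passed the test, with 48.8, 38.6 and 48.5 normalized counts in the p53KO–emiRFP and 106, 78.4 and 82.6 in the WT–emiRFP libraries. Its log2 fold change was −0.98 (SE 0.22, edgeR adjusted p = 0.017), beside 6.13% of all genes called. Without replicate 2 the adjusted p was 0.25 and without replicate 3 it was 0.088, the lowest over the alternatives being 0.00029. At 48 h Mesp2 was again lower (log2 fold change −0.97, SE 0.17, edgeR adjusted p = 0.00087), Tbx6 was lower (log2 fold change −0.58, SE 0.18, edgeR adjusted p = 0.03) and Tcf15 was higher (log2 fold change 0.51, SE 0.11, edgeR adjusted p = 0.0026), where 22% of all genes were called. Of these 3 calls, that of Mesp2 was kept under every alternative. Tbx6 lost its call without any 1 of the 3 replicates (edgeR adjusted p = 0.11, 0.25 and 0.06, over all alternatives 0.0088 to 0.25) and Tcf15 without replicate 2 (0.069, over all alternatives 6.3e-08 to 0.075). With the replicate block, Meox1 and Uncx were called too, which makes 5. At 72 h Mesp2 was the 1 called gene of 7 tested, at 22.1, 22.2 and 19.0 against 59.7, 48.6 and 42.5 normalized counts (log2 fold change −1.24, SE 0.24, edgeR adjusted p = 0.0012), beside 29.1% of all genes. Without replicate 3, Tcf15 (edgeR adjusted p = 0.031) and Tbx18 (0.03) were called as well.

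At 96 h, when WT cells were at their presomitic peak, 5 of the 9 tested genes were lower in p53KO–emiRFP cells than WT–emiRFP cells and none was higher, where 13.8% of all genes were lower and 9.45% higher. Msgn1 had 4004, 5080.0 and 5536 normalized counts in the 3 p53KO–emiRFP libraries and 7711, 9212 and 8437 in the WT–emiRFP libraries, a log2 fold change of −0.80 (SE 0.11, edgeR adjusted p = 0.0001). Tbx6 had 4518, 5121 and 6313 against 7795, 9141 and 9775, which gives −0.74 (SE 0.15, edgeR adjusted p = 0.0018). Every p53KO–emiRFP library lay below every WT–emiRFP library for these 5 genes. Foxc2 differed most, at 151, 134 and 266 against 870.3, 878 and 1389 normalized counts (log2 fold change −2.50, SE 0.33, edgeR adjusted p = 8.8e-05), followed by Meox1 at 287, 333 and 229 against 755, 667 and 802 (log2 fold change −1.39, SE 0.12, edgeR adjusted p = 1.3e-06). Mesp2, still at 32.1 against 68.2, had a log2 fold change of −1.12 (SE 0.24, edgeR adjusted p = 0.0033). Without replicate 1 its adjusted p was 0.12 (alternatives 4.9e-06 to 0.12). With the replicate block, Tcf15 was called higher (0.26, edgeR adjusted p = 0.039) and Uncx lower (−1.24, edgeR adjusted p = 0.038), which makes 7.

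At 120 h the difference of the presomitic genes had the opposite sign, with the Msgn1 mean at 0.782% of its 96 h mean in WT–emiRFP cells and at 34.8% in p53KO–emiRFP cells. Msgn1 had 1623, 1669.7 and 1794 normalized counts in p53KO–emiRFP and 90.3, 55.2 and 52.7 in WT–emiRFP libraries (log2 fold change 4.69, SE 0.25, edgeR adjusted p = 3.6e-09). For Tbx6 the libraries held 5277, 6914 and 6185 against 481, 393 and 378 (log2 fold change 3.88, SE 0.18, edgeR adjusted p = 1e-09). Tbx6 of p53KO–emiRFP cells was at its own highest mean at this time, whereas the mean of WT–emiRFP cells stood at 4.69% of its 96 h value. The 96 h and 120 h levels of p53KO–emiRFP cells did not differ past the threshold. In all, 5 of the 10 genes were higher and 2 lower, where 27.3% of all genes were higher and 23.7% lower. Their median log2 fold change was 0.68, beside 0.046 over all genes tested.

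The determination front genes were also higher. Mesp2 had 829.8, 1129.8 and 1071 normalized counts in p53KO–emiRFP and 332, 337 and 285 in WT–emiRFP libraries (log2 fold change 1.67, SE 0.14, edgeR adjusted p = 3.3e-07), and Ripply2 had 300.4, 336 and 411 against 135, 93.0 and 79.5 (log2 fold change 1.77, SE 0.21, edgeR adjusted p = 1e-05). Neither pair of groups overlapped. The genes of the formed somite did not pass the test at this time. Meox1 was at 10139 ± 1749 against 8770.1 ± 1484 (SD, n = 3), which gives 0.21 (SE 0.17, edgeR adjusted p = 0.32). Tcf15 was at −0.18 (edgeR adjusted p = 0.4) and Uncx at 0.36 (edgeR adjusted p = 0.26), and their libraries overlapped. With the replicate block Uncx was called (edgeR adjusted p = 0.028). Of the somite compartment and sclerotome genes, Foxc2 was higher at 3349, 4641 and 5175 against 2486, 1804 and 2264 (log2 fold change 1.01, SE 0.16, edgeR adjusted p = 0.00013). Pax1 was lower at 26.6, 34.4 and 53.2 against 82.1, 82.4 and 155 (log2 fold change −1.49, SE 0.45, edgeR adjusted p = 0.013), and Tbx18 was lower at 151, 243 and 256 against 507, 323 and 499 (log2 fold change −1.03, SE 0.23, edgeR adjusted p = 0.0017). Without replicate 1 the adjusted p of Pax1 was 0.097 (alternatives 2.1e-11 to 0.097) and that of Tbx18 0.051 (alternatives 1.3e-13 to 0.051).

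At 144 h all 10 genes were higher in the p53KO–emiRFP cells than in their WT–emiRFP counterparts, under every alternative and with no overlap between the libraries, where 33.1% of all genes were higher and 32.1% lower. The median log2 fold change of the 10 was 3.06, beside 0.00665 over all genes tested. Among the presomitic genes, Msgn1 had 65.5, 78.2 and 86.3 normalized counts against 2.80, 5.23 and 4.35 (log2 fold change 4.19, SE 0.31, edgeR adjusted p = 4.7e-08) and Tbx6 649, 680.4 and 693 against 57.8, 96.2 and 46.1 (log2 fold change 3.35, SE 0.21, edgeR adjusted p = 8.6e-09). Both had fallen far below their 96 h level in p53KO–emiRFP and in WT–emiRFP cells. Mesp2 had 405, 355 and 382 against 116, 109 and 84.3 (log2 fold change 1.89, SE 0.17, edgeR adjusted p = 2.8e-07). Ripply2 had 2 raw counts in WT–emiRFP cells, summed over 3 libraries, against 399 in p53KO–emiRFP cells, a ratio of 199 (95% exact interval 54.7 to 1647, counting error only). The somite genes, which had not differed past the threshold a day earlier, now stood apart. Meox1 had 18957, 13212 and 15232 against 2866, 2142 and 1960.5 (log2 fold change 2.77, SE 0.25, edgeR adjusted p = 3.3e-07), Tcf15 2445, 2108 and 2636 against 1078, 938 and 959.8 (log2 fold change 1.27, SE 0.19, edgeR adjusted p = 3.4e-05). Uncx had 1980.1, 1471 and 2065 against 167, 99.3 and 95.6 (log2 fold change 3.93, SE 0.38, edgeR adjusted p = 6e-07), and Tbx18, its counterpart in the anterior compartment, 279, 176 and 205 against 60.6, 68.0 and 51.3 (log2 fold change 1.88, SE 0.23, edgeR adjusted p = 7.1e-06). Foxc2 had 3767, 3139 and 3544 against 244, 179.9 and 118 (log2 fold change 4.27, SE 0.29, edgeR adjusted p = 1.8e-08) and Pax1 1067, 632 and 902 against 327, 289 and 256 (log2 fold change 1.58, SE 0.29, edgeR adjusted p = 0.0003), so that Pax1 and Tbx18 were lower at 120 h and higher at 144 h. Per kilobase, Meox1 was the highest of the 10 genes in p53KO–emiRFP cells at 144 h with 7092 normalized counts, against 1042 in WT–emiRFP cells.

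**Figure D3:**
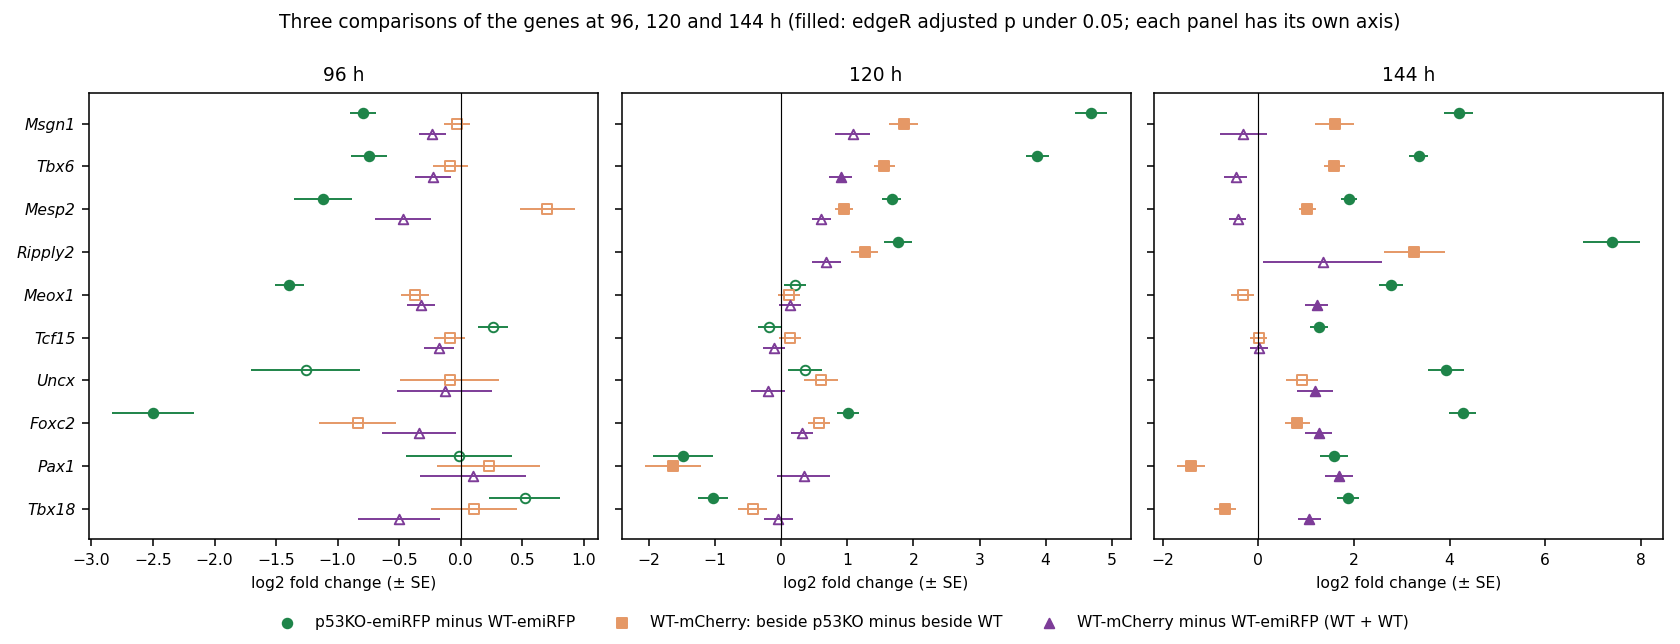
Log2 fold changes of the 10 genes at 96, 120 and 144 h in 3 comparisons (p53KO–emiRFP against WT–emiRFP cells, WT–mCherry cells by neighbour, and WT–mCherry against WT–emiRFP cells of WT + WT gastruloids), with bars of 1 SE, filled symbols for an edgeR adjusted p under 0.05 and an axis of its own for each panel. In p53KO–emiRFP cells 5 genes lie below 0 with filled symbols at 96 h and all 10 lie above it at 144 h.

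Within p53KO–emiRFP cells, the step from 72 to 96 h had the same counts as in WT cells, 6 genes higher and 1 lower (over all genes 22.4% and 22.2%). From 96 to 120 h, 8 genes rose and Msgn1 fell by 1.52 on the log2 scale (SE 0.21, edgeR adjusted p = 3e-08), while Tbx6 was at 0.20 (SE 0.14, edgeR adjusted p = 0.28). Over all genes 18.9% rose and 16.1% fell. From 120 to 144 h the presomitic and front genes fell, Msgn1 by 4.47, Tbx6 by 3.18, Mesp2 by 1.41 and Ripply2 by 1.49 on the log2 scale. Meox1 (log2 fold change 0.64, SE 0.16, edgeR adjusted p = 0.0021), Uncx (log2 fold change 1.03, SE 0.24, edgeR adjusted p = 0.00082) and Pax1 (log2 fold change 4.51, SE 0.32, edgeR adjusted p = 1.1e-16) rose, where 13% of all genes rose and 9.64% fell. The rises of Meox1 and Uncx lost their call without replicate 1, with edgeR adjusted p = 0.18 (alternatives 3.1e-15 to 0.18) and 0.08 (alternatives 1e-13 to 0.08). Tcf15 (0.13), Foxc2 (−0.33) and Tbx18 (0.02) did not pass the test. The level at 144 h was 35.6% of that at 120 h for Ripply2, 37.7% for Mesp2, 79.4% for Foxc2, 156% for Meox1 and 204% for Uncx.

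The difference between p53KO–emiRFP and WT–emiRFP cells in these steps was tested as an interaction of population with time. It is given as the log2 fold change of p53KO–emiRFP cells minus that of WT–emiRFP cells. From 72 to 96 h it was called for Tbx6 alone, which rose less in p53KO–emiRFP cells (difference −0.87, SE 0.29, edgeR adjusted p = 0.037), where 5.52% of all genes had a called difference in this direction. This call was lost without any 1 of the replicates (edgeR adjusted p = 0.24, 0.13 and 0.077, over all alternatives 1.8e-05 to 0.24). From 96 to 120 h the difference was positive for Msgn1 (difference 5.48, SE 0.35, edgeR adjusted p = 1.1e-18), Tbx6 (difference 4.62, SE 0.21, edgeR adjusted p = 5.1e-24), Mesp2 (difference 2.79, SE 0.26, edgeR adjusted p = 1.1e-12), Meox1 (difference 1.60, SE 0.25, edgeR adjusted p = 9e-07) and Foxc2 (difference 3.51, SE 0.34, edgeR adjusted p = 3.9e-12), and negative for Tbx18 (difference −1.55, SE 0.40, edgeR adjusted p = 0.0016). Over all genes 16.8% were positive and 13.9% negative. Without replicate 1 the adjusted p of Tbx18 was 0.079 (alternatives 5.1e-05 to 0.079), and without replicate 2 Ripply2 was called too (0.04). From 120 to 144 h the 7 genes from Ripply2 onwards, Ripply2, Meox1, Tcf15, Uncx, Foxc2, Pax1 and Tbx18, fell less or rose more in p53KO–emiRFP cells, where 10.3% of all genes did. Uncx had the largest of these differences not resting on counts near 0, at 3.57 (SE 0.36, edgeR adjusted p = 4.5e-11). The differences of Msgn1, Tbx6 and Mesp2 in this step were not called, with edgeR adjusted p = 0.82, 0.19 and 0.57.

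The neighbour was compared in WT–mCherry cells, which share genotype and clone and differ in having grown beside p53KO–emiRFP or WT–emiRFP cells. This comparison shares no library with that of p53KO–emiRFP and WT–emiRFP cells. The cells of both were sorted from the same kinds of gastruloids and share a fit at each time point, so the comparisons are not independent. At 48 and 72 h edgeR and DESeq2 called none of the 10 genes, beside 0.0735% and 0.559% of all genes by edgeR, and 0 and 1 (Tcf15) had an unadjusted p under 0.05. At 96 h edgeR also called none, beside 3.93%, and 3 had an unadjusted p under 0.05, whereas with the replicate block 3 were called. These were Mesp2 (0.71, edgeR adjusted p = 0.0079), Meox1 (−0.37, edgeR adjusted p = 0.01) and Foxc2 (−0.84, edgeR adjusted p = 2e-07). DESeq2 called Meox1 alone, and without replicate 3 Foxc2 was called (edgeR adjusted p = 0.014).

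At 120 h the presomitic and front genes were higher beside p53KO cells and Pax1 was lower, 4 genes and 1 gene of 10, where 3.43% of all genes were higher and 2.53% lower. The 10 genes had a median log2 fold change of 0.59, beside −0.00751 over all genes. Msgn1 had 437, 594 and 479.7 normalized counts beside p53KO and 205, 109.7 and 104 beside WT cells (log2 fold change 1.85, SE 0.22, edgeR adjusted p = 0.00054), and Tbx6 1810.1, 2986 and 2085 against 879, 706 and 749 (log2 fold change 1.56, SE 0.16, edgeR adjusted p = 0.0003). Mesp2 had 766, 1048 and 982 against 497, 526 and 429.8 (log2 fold change 0.95, SE 0.14, edgeR adjusted p = 0.0014) and Ripply2 337, 445 and 398 against 212, 135 and 144 (log2 fold change 1.26, SE 0.20, edgeR adjusted p = 0.0028). No library of either group overlapped with the other for these 4 genes. Pax1 had 41.0, 29.2 and 60.4 against 102, 68.2 and 231 (log2 fold change −1.64, SE 0.43, edgeR adjusted p = 0.038). Its call was lost without replicate 1 (edgeR adjusted p = 0.27) and without replicate 2 (0.056), with alternatives of 5.3e-14 to 0.27. Foxc2, at 3385, 4186 and 4507 against 3054, 2308 and 2775, missed the threshold (log2 fold change 0.57, SE 0.16, edgeR adjusted p = 0.053), and without replicate 1 its adjusted p was 0.044 (alternatives 5.7e-12 to 0.25). It was also called by DESeq2 (DESeq2 adjusted p = 0.0089) and by edgeR without the low-count filter. The edgeR adjusted p was 0.049 with TMM normalization, 0.04 with only the compared groups and 0.0065 with the replicate block. Mesp2 and Ripply2 had means in WT–mCherry cells beside p53KO cells (932 and 393 normalized counts) near those of the p53KO–emiRFP cells of these gastruloids (1010.1 and 349), a pair of groups that was not tested, whereas Msgn1 was at 503 against 1696.

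The share of RNA of emiRFP cells in the mCherry libraries was estimated from H2bc14 and H2bc21, H2B histone genes with far more counts in emiRFP libraries than in mCherry mES cells, as the excess of a mCherry library over the mCherry mES cells divided by that of the emiRFP library of the same gastruloids. This takes mCherry cells of later times to keep the mES cell level (7.24 and 18.3 normalized counts), which was not tested. In WT–mCherry libraries beside WT cells at 120 h, H2bc21 had 36.5, 36.6 and 42.4. By H2bc14 the share in WT–mCherry libraries beside p53KO cells was 2.91% to 7.35% at 120 h and 2.26% to 16.8% at 144 h, and at most 2.01% beside WT cells at either time. By H2bc21 it was 8.25% to 25.0% and 2.73% to 19.6% beside p53KO cells and up to 5.41% and 6.82% beside WT cells, so that at 144 h the ranges overlapped. At 120 h, replicate 2 had the lowest share (2.91% by H2bc14 and 8.25% by H2bc21), and the 2 genes differed most in replicate 3 (6.55% and 25.0%). In replicate 2, 201 of the 2986 Tbx6 normalized counts corresponded to emiRFP RNA by H2bc14 and 570.1 by H2bc21. In replicate 3, 405 of 2085 did by H2bc14 and 1547 by H2bc21, as did 449 of the 479.7 Msgn1 counts by H2bc21. The libraries beside WT cells held 706 to 879 Tbx6 counts. Beyond the subtraction that follows, the part of emiRFP RNA in these rises was not tested. After subtraction of emiRFP RNA by H2bc14 all 5 calls at 120 h were kept. By H2bc21, 3 were kept, with Msgn1 at 0.97 (edgeR adjusted p = 0.35) and Tbx6 at 1.00 (edgeR adjusted p = 0.085). The Mesp2 and Ripply2 calls at 120 h were kept under both, with a highest adjusted p of 0.048 and 0.045 over all alternatives.

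**Figure D4:**
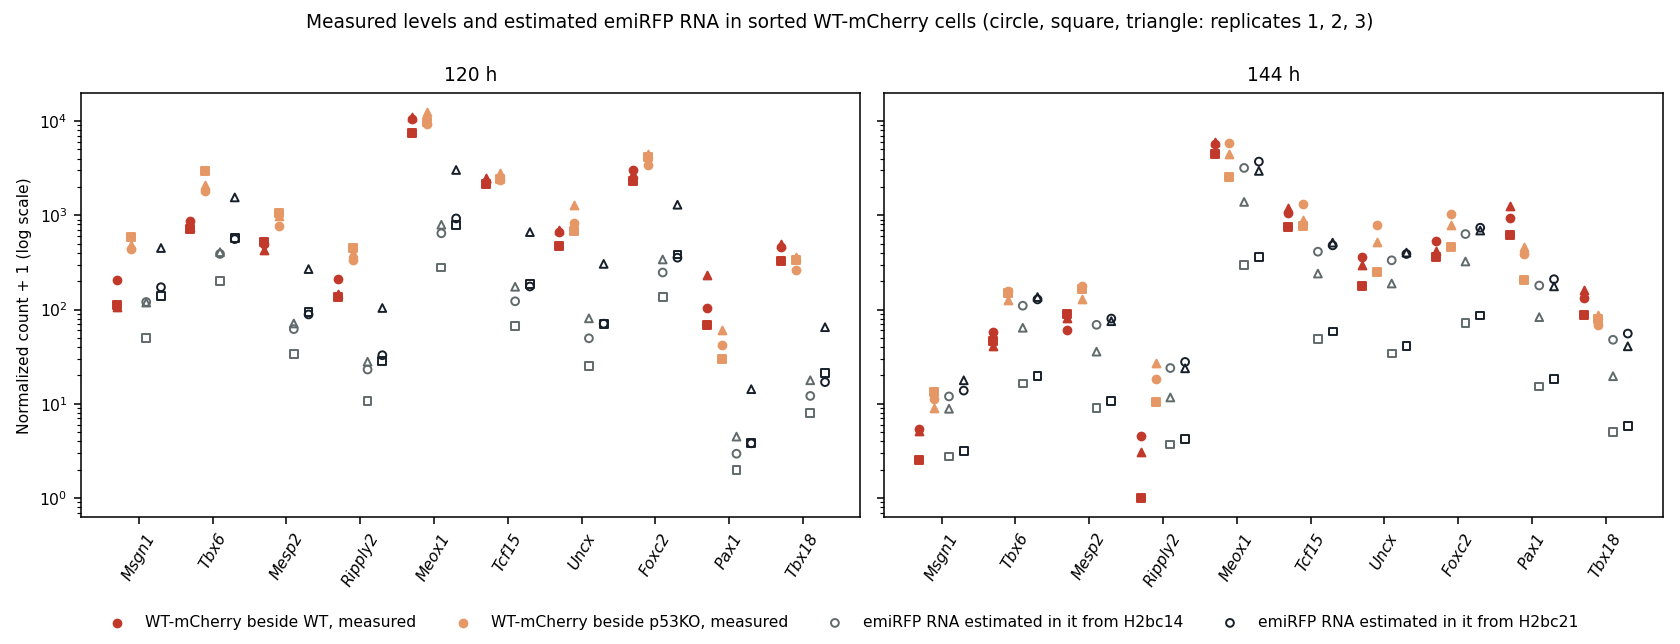
Normalized counts plus 1 (log axis) of the 10 genes in each WT–mCherry library at 120 and 144 h, beside p53KO and beside WT cells, with the amount that emiRFP RNA would give in the library beside p53KO cells by H2bc14 and by H2bc21 (circle, square and triangle for replicates 1, 2 and 3). At 120 h the measured Mesp2 and Ripply2 lie above both estimates in every replicate, and at 144 h the estimates for Msgn1 exceed the measured value in replicate 1 by both genes and in replicate 3 by H2bc21.

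At 144 h, 5 of the 10 genes were higher and 2 lower beside p53KO cells, where 10.1% of all genes were higher and 15.4% lower. Their median log2 fold change was 0.86, beside −0.0273 over all genes, and it was 0.05 and −0.21 after subtraction of emiRFP RNA by H2bc14 and by H2bc21. Msgn1 had 10.1, 12.4 and 7.92 normalized counts against 4.42, 1.55 and 4.12 (log2 fold change 1.59, SE 0.41, edgeR adjusted p = 0.012), Tbx6 156, 150.2 and 124 against 56.6, 45.0 and 40.2 (log2 fold change 1.59, SE 0.22, edgeR adjusted p = 0.00031). Mesp2 had 175, 163 and 129 against 59.3, 88.5 and 80.4 (log2 fold change 1.03, SE 0.18, edgeR adjusted p = 0.0013), and Ripply2 17.5, 9.57 and 26.1 against 3.54, 0 and 2.06 (log2 fold change 3.26, SE 0.64, edgeR adjusted p = 0.0026). Foxc2, at 1032, 459 and 789.8 against 529, 356 and 414, was called (log2 fold change 0.81, SE 0.26, edgeR adjusted p = 0.033) although its libraries overlapped. Pax1 was lower at 391, 203 and 459 against 929, 617 and 1268 (log2 fold change −1.41, SE 0.29, edgeR adjusted p = 0.0036) and Tbx18 at 67.2, 78.5 and 85.6 against 133, 86.2 and 159 (log2 fold change −0.69, SE 0.23, edgeR adjusted p = 0.04), and neither overlapped. With the replicate block, Meox1 (−0.38, edgeR adjusted p = 0.033) and Uncx (0.87, edgeR adjusted p = 0.0014) were called too, which makes 9.

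The rises at this time were smaller than the estimated emiRFP RNA in some libraries. In replicate 1, with a share of 16.8% by H2bc14, the expected emiRFP RNA came to 108% of the measured Msgn1 counts and 131% of the measured Ripply2 counts. In replicate 2, with a share of 2.26%, Tbx6 had 150.2 normalized counts of which 15.4 were expected from emiRFP RNA, and Mesp2 163 of which 8.02 were. The libraries beside WT cells reached 56.6 and 88.5. After subtraction by H2bc14 the calls were Mesp2 (higher) and Meox1 (−0.87), Pax1 and Tbx18 (lower). By H2bc21 they were Meox1 (−1.30), Pax1 and Tbx18, all lower. Msgn1 was then at 0.01 (edgeR adjusted p = 1) by either gene, Tbx6 at 0.87 (0.051) and 0.22 (0.85), Ripply2 at 2.12 (0.11) and 0.95 (0.48), and Foxc2 at 0.09 and −0.62 by H2bc14 and H2bc21. Single replicates also decided calls. Msgn1 had an edgeR adjusted p of 0.053 without replicate 1 and 0.19 without replicate 2 (alternatives 0.012 to 1). Foxc2 had 0.094 without replicate 1 and 0.15 without replicate 3 (4.1e-16 to 0.76). Tbx18 had 0.23 without replicate 1 and 0.19 without replicate 3 (0.0032 to 0.23). Uncx was called without replicate 2 (0.026).

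The 2 WT clones of WT + WT gastruloids give the background for these comparisons, with which they share the WT–mCherry libraries beside WT cells or the WT–emiRFP libraries. Between WT–mCherry and WT–emiRFP cells none of the 10 genes was called by edgeR or DESeq2 at 0, 72 or 96 h, beside 11.1%, 7.64% and 2.15% of all genes by edgeR, and 1, 0 and 2 had an unadjusted p under 0.05. With the replicate block 4 genes were lower in WT–mCherry cells at 96 h, Msgn1 (−0.23), Tbx6 (−0.23), Meox1 (−0.32) and Foxc2 (−0.37). At 48 h Tcf15 was lower (log2 fold change −0.45, SE 0.11, edgeR adjusted p = 0.016), beside 4.18% of all genes in that direction, and its adjusted p was 0.16 without replicate 1 and 0.058 without replicate 2 (alternatives 1.7e-05 to 0.16). At 120 h Tbx6 was higher in WT–mCherry cells, at 879, 706 and 749 against 481, 393 and 378 normalized counts (log2 fold change 0.90, SE 0.17, edgeR adjusted p = 0.024), beside 0.52% of all genes. Its adjusted p was 0.19 without replicate 1 and 0.32 without replicate 3 (alternatives 4.3e-22 to 0.32). With the replicate block Msgn1 (1.08, edgeR adjusted p = 0.014) and Mesp2 (0.61, edgeR adjusted p = 0.0024) were called higher too.

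At 144 h the clones differed in 5 somite genes, all higher in WT–mCherry than in WT–emiRFP cells, where 13% of all genes were. Meox1 had 5736, 4436 and 6038 against 2866, 2142 and 1960.5 normalized counts (log2 fold change 1.22, SE 0.24, edgeR adjusted p = 0.0027) and Pax1 929, 617 and 1268 against 327, 289 and 256 (log2 fold change 1.69, SE 0.29, edgeR adjusted p = 0.0012). In the same comparison 4 of 5 pluripotency markers were lower and 3 of 5 neural markers higher in WT–mCherry cells. The log2 fold changes were 1.19 for Uncx, 1.26 for Foxc2 and 1.06 for Tbx18 (edgeR adjusted p = 0.036, 0.0059 and 0.0056). Without replicate 3 only Pax1 was called (edgeR adjusted p = 0.078 for Meox1, 0.27 for Uncx, 0.091 for Foxc2 and 0.12 for Tbx18), and without replicate 1 Uncx (0.068) and Tbx18 (0.059) were not. The highest adjusted p of Pax1 over its alternatives was 0.031. The Pax1 means at 144 h were 938 ± 326 in WT–mCherry cells of WT + WT gastruloids, 867 ± 219.5 in p53KO–emiRFP and 291 ± 35.1 in WT–emiRFP cells (SD, n = 3), and the first and second of these were not tested against each other. Meox1 of p53KO–emiRFP cells (15800.4 ± 2915) was above that of WT cells of either clone (5403 ± 851 and 2323 ± 479), and the lowest p53KO–emiRFP library exceeded the highest WT library for Msgn1, Tbx6, Mesp2, Ripply2, Meox1, Tcf15, Uncx, Foxc2 and Tbx18.

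The other genes of the pathway were read from a list of 39 genes in 5 roles, of which 38 were tested at 120 h and 144 h. In p53KO–emiRFP against WT–emiRFP cells 5 of 36 were higher and 17 lower at 96 h, 25 were higher and 3 lower at 120 h, and 35 were higher and none lower at 144 h. The share of all genes tested that was higher was 9.45%, 27.3% and 33.1% at these times, and the lower share 13.8%, 23.7% and 32.1%. Without replicate 1, 8 were lower at 96 h and 1 at 120 h. The median log2 fold change of the list was −0.45, 1.19 and 1.69 at these times, and that of all genes tested −0.00798, 0.046 and 0.00665. At 120 h all 7 tail bud genes and all 7 clock and Notch genes were higher. Wnt3a, a ligand that maintains the tail bud, had 3630.5 ± 399 against 351 ± 32.9 normalized counts (log2 fold change 3.37, SE 0.17, edgeR adjusted p = 1.7e-09), and T, the T-box factor of nascent mesoderm, 10996 ± 964 against 1589.8 ± 239 (log2 fold change 2.79, SE 0.13, edgeR adjusted p = 8.5e-10). Hes7, the oscillating repressor of the segmentation clock, had 2464 ± 233 against 321 ± 58.2 (log2 fold change 2.94, SE 0.13, edgeR adjusted p = 7.8e-10) and the Notch ligand Dll1 30469.8 ± 3227 against 4101 ± 542 (log2 fold change 2.89, SE 0.13, edgeR adjusted p = 5.9e-10). Of the 7 determination front genes 6 were higher, such as Mesp1 (log2 fold change 2.26, SE 0.21, edgeR adjusted p = 9.3e-07), the neighbour and relative of Mesp2, and Pcdh19 (log2 fold change 2.13, SE 0.18, edgeR adjusted p = 2.3e-07), a cadherin of the anterior presomitic mesoderm. Ripply1, the relative of Ripply2, was lower (log2 fold change −0.88, SE 0.17, edgeR adjusted p = 0.00072). Of the somite and dermomyotome genes 4 of 10 were higher, among them Aldh1a2, which makes retinoic acid in somites (log2 fold change 2.16, SE 0.21, edgeR adjusted p = 1.4e-06), and Foxc1, the relative of Foxc2 (log2 fold change 1.07, SE 0.17, edgeR adjusted p = 0.00012), and Meox2 was lower (log2 fold change −1.40, SE 0.35, edgeR adjusted p = 0.0039). Of the 7 sclerotome and syndetome genes 1, Sox9, a factor of cartilage precursors, was higher (log2 fold change 1.82, SE 0.15, edgeR adjusted p = 2.5e-07). The call of Meox2 was lost without replicate 1 (edgeR adjusted p = 0.058).

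At 144 h the list was higher in every role, with 7 of 7 tail bud genes, 7 of 7 clock and Notch genes, 5 of 7 front genes, 9 of 10 somite genes and 7 of 7 sclerotome and syndetome genes. Hes7 had 495 ± 60.5 against 6.96 ± 0.757 normalized counts (log2 fold change 6.14, SE 0.32, edgeR adjusted p = 2e-09), Dll3, a Notch ligand of the presomitic mesoderm, 1599 ± 57.7 against 130.4 ± 14.7 (log2 fold change 3.61, SE 0.12, edgeR adjusted p = 7.8e-11) and Rspo3, a Wnt enhancer, 1236 ± 74.2 against 35.3 ± 14.3 (log2 fold change 5.12, SE 0.19, edgeR adjusted p = 1.3e-10). Foxc1 (log2 fold change 3.32, SE 0.22, edgeR adjusted p = 1.4e-08) and Eya1 (log2 fold change 3.01, SE 0.30, edgeR adjusted p = 7.7e-07) had the 2 largest rises of the somite and dermomyotome genes, and Foxd1 (log2 fold change 3.16, SE 0.27, edgeR adjusted p = 1.9e-07) and Col2a1 (log2 fold change 1.43, SE 0.15, edgeR adjusted p = 1.2e-06), the cartilage collagen, those of the sclerotome and syndetome genes. Of these, Eya1, Foxd1 and Col2a1 had not been called at 120 h. Beside p53KO cells, WT–mCherry cells had 17 of the 38 genes higher and 2 lower at 120 h, with 6 of 7 tail bud and 7 of 7 clock and Notch genes higher (over all genes 3.43% and 2.53%). After subtraction of emiRFP RNA by H2bc14 the counts were again 17 and 2, and by H2bc21 they were 11 and 2, with 1 tail bud and 6 clock and Notch genes higher. Without replicates 1, 2 and 3 in turn, 16, 15 and 14 were higher and 0, 1 and 0 lower. At 144 h 11 were higher and 13 lower, the 11 made up of 6 tail bud, 4 clock and 1 front gene, and the 13 of 1 clock, 2 front, 6 somite and 4 sclerotome genes (over all genes 10.1% and 15.4%). After subtraction, 2 were higher by either gene, 1 tail bud and 1 clock gene, and 21 (H2bc14) or 24 (H2bc21) were lower, all 10 somite genes among them. The calls of Hes7, Rspo3, T, Wnt3a, Dll3 and Mesp1 beside p53KO cells at 144 h were changed by both subtractions. With each replicate left out in turn, 5, 7 and 9 were higher and 10, 15 and 9 lower. In the fit with the replicate block 11 were higher and 18 lower, 9 of 10 somite genes among them, and at 120 h 22 were higher and 3 lower. The median log2 fold change of the list was 0.48 at 120 h and −0.31 at 144 h, and after subtraction 0.46 and −0.67 by H2bc14 and 0.35 and −1.18 by H2bc21. Between the WT clones at 144 h 25 were higher in WT–mCherry cells, among them 8 of 10 somite genes and 7 of 7 sclerotome and syndetome genes, and 2 were lower, where 13% of all genes were higher and 10.8% lower. Without replicate 3, 12 were higher.

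Markers of other cell types were summed over lists of 5 genes each. No marker was at 0 in all libraries of a group. Cer1 of the endoderm list had the course most like that of Ripply2 over the group means (Pearson's r = 0.957). The paper uses Pecam1, here in the haematoendothelial list, as a surface marker of pluripotency. The sums and calls of these lists may therefore also count other cells. At 96 h, where 5 of the 10 genes were lower in p53KO–emiRFP cells, the sum of the pluripotency list (Nanog, Pou5f1, Esrrb, Zfp42 and Klf4) was 18481 to 21808 against 27919 to 32143 normalized counts in WT–emiRFP cells, with 4 of 5 genes lower, that of intermediate mesoderm (Osr1, Pax2, Pax8, Lhx1 and Wt1) 1281 to 1744 against 2586 to 2882, with 2 lower, and the haematoendothelial sum (Kdr, Cdh5, Pecam1, Tal1 and Etv2) 977 to 1055 against 1331 to 1729, with 2 higher and 1 lower. The neural sum at 96 h was 5504 to 6699 against 6870 to 7224, with 1 gene higher. That of the endoderm list was 13811 to 14337 against 14557 to 16033, with 1 higher. The lateral plate and cardiac sum was 462 to 541 against 480 to 571, with 1 higher and 1 lower. The pluripotency sum was 10256 to 10936 normalized counts in p53KO–emiRFP and 52197 to 59345 in WT–emiRFP libraries at 120 h, and 11001 to 16339 against 72014 to 80520.4 at 144 h, with all 5 genes lower at each time. The haematoendothelial sum was 812 to 1132 against 5315 to 5479.7 at 120 h, with 4 of 5 genes lower, and 1682 to 2139 against 7144 to 7174 at 144 h, with 2 of 5 lower. The neural sum (Sox1, Sox2, Pax6, Irx3 and Olig2) was 6716 to 7576 against 12736 to 14855 at 120 h and 13379 to 15104 against 16516 to 19487 at 144 h, with 1 gene higher and 1 lower at 120 h and 3 higher and 1 lower at 144 h. The sum for intermediate mesoderm was 1479 to 1760.3 against 807 to 950.4 at 120 h, with 2 genes higher and 1 lower, and 886 to 1052 against 504 to 534 at 144 h, with 4 genes higher and 1 lower. For endoderm (Sox17, Foxa2, Cer1, Trh and Cldn6) the sums were 8418 to 10041 against 10010.1 to 12513 at 120 h and 3361 to 4324 against 4779 to 6221 at 144 h, with 1 gene higher and 2 lower at each time. For lateral plate and cardiac mesoderm (Foxf1, Hand1, Hand2, Gata4 and Tbx5) they were 595 to 662 against 385 to 499 at 120 h, with 3 higher and 1 lower, and 397 to 477 against 516 to 918 at 144 h, with 1 higher and 2 lower. In WT–mCherry cells at 120 h the pluripotency sum was 36741 to 37733 beside p53KO and 41434 to 53294 beside WT cells, with 2 of 5 genes lower, the haematoendothelial sum 2605 to 2986 and 3661 to 4372, with 3 lower, and the neural sum 9947 to 12293 and 13147 to 14193, with 1 lower. At 144 h the pluripotency sum was 55372 to 59923 and 50931 to 55313, with none of 5 genes called by edgeR, and the haematoendothelial sum 5409 to 5680.2 and 5152 to 5625, with 3 lower. The neural sum was then 13785 to 17146 and 17922 to 20081, with 3 lower, and the endoderm sum 5212 to 8250.0 and 3538 to 5616, with 3 higher. Between the WT clones at 144 h, where 5 of the 10 genes and 25 of the pathway list were higher in WT–mCherry cells, the pluripotency sum was 50931 to 55313 in WT–mCherry and 72014 to 80520.4 in WT–emiRFP libraries, with 4 of 5 genes lower, and the neural sum 17922 to 20081 and 16516 to 19487, with 3 higher. The haematoendothelial sum was 5152 to 5625 and 7144 to 7174, with 1 higher and 1 lower, and in the endoderm and the lateral plate and cardiac lists 1 gene each was lower and in that of intermediate mesoderm 1 higher. The part of these cell types in the differences of the 10 genes and of the pathway list was not tested.

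Genes with the most similar course were ranked by Pearson's r of log2(mean normalized count + 1) over the 23 group means, among 15935 genes with at least 50 normalized counts in their highest group. The group means share clones, times and gastruloids, so r is given as a description. Msgn1 was most like Snai1 (r = 0.971), Cited2 (0.967) and Samd3 (0.962), and Tbx6 most like Gm44171 (0.990), Gm44169 (0.987) and Ets2 (0.976). Both front genes had Cer1 and Myocd among their nearest 3, with 0.897 and 0.886 for Mesp2, beside Mansc4 (0.916), and 0.957 and 0.936 for Ripply2, beside Stum (0.929). Meox1 followed Meis1 (0.990), N4bp2 (0.986) and Islr (0.986), and Tcf15 had no gene above 0.913, which was Fzd9, with Dusp5 (0.905) also among its nearest. Bmp3 was nearest to both Uncx (0.980) and Tbx18 (0.958), the 2 genes of opposite somite compartments. Uncx was next to Gm12829 (0.978) and Ltbp1 (0.970), and Tbx18 to Dmrt2 (0.956) and Tbx2 (0.955). Foxc2 was most like Sdk2 (0.980), Ccdc80 (0.975) and Olfml3 (0.972), and Pax1 most like Ednrb (0.963), Dbx1 (0.955) and Fam181a (0.953). Among the 10 genes themselves, r was 0.940 for Msgn1 and Tbx6, 0.883 for Mesp2 and Ripply2, 0.966 for Meox1 and Foxc2 and 0.933 for Uncx and Tbx18, against 0.186 for Msgn1 and Mesp2 and −0.27 for Msgn1 and Pax1.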

How the data were processed

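The authors trimmed the reads of stranded polyA libraries with Trim Galore 0.6.7, aligned them with STAR 2.7.11b to the mouse genome GRCm38.p6 with a Gencode annotation and counted uniquely mapped reads per gene. These raw counts are what was deposited, and for their own figures the authors normalized them with PyDESeq2.

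Median-of-ratios size factors were computed here over all 69 libraries. Genes were filtered with filterByExpr by group and tested with edgeR 4.0.16 (quasi-likelihood, R 4.3.3), with Benjamini-Hochberg adjustment over all genes tested and a threshold of 0.05. Populations of a time point shared a fit of 12 libraries (9 at 0 h), and changes over time and their interaction a fit of 69. SE is the absolute log2 fold change divided by the square root of F. Replicates with 3 per group limit the precision, and at most 1.35% of expressed genes had the same count in a pair of replicates.

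The 10 genes and the lists of pathway and cell type genes were chosen with earlier results of these data known. Pathway genes named in the text are, in each role, the called genes with the 2 strongest increases and the 2 strongest decreases in p53KO–emiRFP cells at 120 and at 144 h, with the genes of most similar course as stated. DESeq2 1.42.0, TMM normalization, no low-count filter, other sets of groups in a fit, a replicate block, each replicate left out and subtraction of emiRFP RNA were the alternatives. The labels number the replicates. After subtraction of group means, libraries with 1 number correlated at over 0.1 across 14078 genes in every pair for each comparison of populations except those of WT–mCherry cells by neighbour at 120 h and of the WT clones at 0 and 72 h, so replicates were taken as paired in the others. The reported tests had group as their only term and did not use this pairing. It enters only through the replicate block, which is given as an alternative. The scripts were tested on simulated data.

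Intervals of counts cover counting error only. Sequences of proteins were not used here. Some genes that the naming rules select are not reported here.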

Additional observations from a re-analysis of the deposited data

Results flagged for a closer look

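The change between consecutive times differed between p53KO–emiRFP and WT–emiRFP cells, by the interaction test of edgeR, in 14 cases, given here as differences of log2 fold changes (p53KO–emiRFP minus WT–emiRFP). From 72 to 96 h it was −0.87 for Tbx6. From 96 to 120 h it was 5.48 for Msgn1, 4.62 for Tbx6, 2.79 for Mesp2, 1.60 for Meox1, 3.51 for Foxc2 and −1.55 for Tbx18. From 120 to 144 h it was 5.60 for Ripply2, which rests on 2 raw counts in WT–emiRFP cells at 144 h, 2.56 for Meox1, 1.45 for Tcf15, 3.57 for Uncx, 3.27 for Foxc2, 3.07 for Pax1 and 2.91 for Tbx18. Meox1, Foxc2 and Tbx18 were called in both of the last 2 steps, Tbx18 with opposite signs.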

How the results depend on the processing

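Of the 131 calls of the 10 genes, 94 were kept under every alternative and 37 were lost under at least 1. In the 110 calls outside the steps from 0 to 48 and from 48 to 72 h, 82 were kept and 28 lost, mostly where a replicate was left out (17, 9 and 12 calls without replicates 1, 2 and 3). Of p53KO–emiRFP cells set against WT–emiRFP, the count of called genes at 48 h was 1 with all 23 groups in 1 fit and 5 with the replicate block (3 as reported), and at 72 h it was 2 without the low-count filter and 2 with only the compared groups in the fit (1 as reported). In WT–mCherry cells by neighbour it was 1 at 72 h without the filter (0 as reported). At 96 h it was 1 by DESeq2, 2 with all 23 groups, 3 without the filter and 3 with the replicate block (0 as reported). At 120 h it was 8 without the filter and 3 after subtraction by H2bc21 (5 as reported), and at 144 h 4 with only the compared groups, 4 after subtraction by H2bc14 and 3 by H2bc21 (7 as reported). Foxc2 there turned from 0.81 to −0.62 after subtraction by H2bc21. Between the WT clones it was 1 at 0 h and 1 at 72 h, each without the filter and with the replicate block (0 as reported), 4 at 96 h in the same fits (0 as reported), and at 120 h 4 by DESeq2, 5 without the filter and 3 with the replicate block (1 as reported). The difference of change from 72 to 96 h was called for 4 genes without the filter (1 as reported). The cause of these differences was not tested.

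Leaving out a replicate gave 0 to 1 genes for p53KO–emiRFP against WT–emiRFP cells at 0 h, 1 to 3 at 72 h, 0 to 1 and 4 to 7 for WT–mCherry cells by neighbour at 96 and 144 h, 0 to 1, 0 to 1 and 1 to 5 for the WT clones at 48, 120 and 144 h, and 0 for the difference of change from 72 to 96 h. In WT–mCherry cells by neighbour at 120 h, where replicate 1 correlated at 0.0717, the numbers were not taken as paired, and there the replicate block called Uncx (0.58, edgeR adjusted p = 0.005) and Foxc2 (0.57, edgeR adjusted p = 0.0065) too. For the WT clones at 0 and 72 h, also not paired (lowest correlations 0.0865 and 0.0377), it called Mesp2 (0.53, edgeR adjusted p = 0.039) and Msgn1 (−1.14, edgeR adjusted p = 0.011). Beside the calls given here and with the results, the replicate block ended none except that of Tbx6 from 0 to 48 h in WT cells (edgeR adjusted p = 0.063). With 3 libraries a group, a difference that missed the threshold is not shown to be absent. Ripply2 at 144 h in WT–emiRFP cells and Foxc2 at 72 h had few counts, where fitted folds depend on the prior count.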
